A study of Sus scrofa with 29 samples.

Results

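Prostanoid, peptide and hyperpolarizing regulators of vessel tone were followed in the luminal scrapes of 2 arteries of exercise-trained and sedentary pigs. The genes were PTGS1, PTGS2, TBXAS1, ADM, NPPC, KCNN3 and KCNN4, and every probe set of the array that carries one of these symbols, and no other, was taken. That gave 9 probe sets of 23999 that are not controls, for 7 genes of 6765 named by symbol. PTGS1 and KCNN3 have 2 probe sets each, called here brighter and dimmer by their mean over all arrays, and the other genes have 1 each. All 9 probe sets were tested, and none was among the dimmest 33.3% of the array.

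The study asked how endurance training alters the endothelial transcript profile of healthy pigs in an artery of the forelimb, the brachial artery, and in one of the chest wall, the internal mammary artery (IMA). The 4 groups were the brachial arteries of exercised pigs (7 arrays), the brachial arteries of sedentary pigs (7 arrays), the IMA of exercised pigs (8 arrays) and the IMA of sedentary pigs (7 arrays). Each of the 29 arrays is 1 artery of 1 animal; 15 pigs were used, and all but 1 exercised pig, which has the IMA alone, gave both arteries. The exercised animals had treadmill bouts of 85 minutes on 5 days of each week over 16 to 20 weeks, with the full load from week 10 on, and were sampled 24 hours after the last bout. The sedentary animals did not train. Breed, sex and age were not given in the sources used here. The source label of the exercised IMA arrays reads sedentary, and the groups follow their titles and treatment labels.

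Endothelial cells set the tone of the muscle beneath them through several messengers. Cyclooxygenases turn arachidonic acid into prostaglandin H2, from which prostacyclin synthase makes the dilator prostacyclin and thromboxane synthase makes thromboxane A2, which constricts vessels and activates platelets. Adrenomedullin and C-type natriuretic peptide are dilator peptides, acting through cyclic AMP and cyclic GMP. Small- and intermediate-conductance calcium-activated potassium channels hyperpolarize the endothelium, and this spreads to smooth muscle and relaxes it. TBXAS1 encodes that thromboxane synthase, so the set holds a maker of a constrictor beside the dilators.

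Values are log2 array values as deposited, which ran between 1.97 and 14.8, and each probe set is compared only with itself. The endothelial markers PECAM1 (13.6 to 14.2) and CDH5 (11.9 to 12.7) were bright on every array, as were the smooth muscle markers ACTA2 (13.2 to 14.3) and TAGLN (13.0 to 14.1), so the scrapes held more than endothelium. VWF ranged between 6.04 and 12.1. KDR (3.58 to 4.46) and FLT1 (6.98 to 8.04) were dimmer, as were the smooth muscle markers MYLK and MYOCD (lowest 6.73 and 6.53). Endothelial markers, 12 of 16 listed, averaged 0.03 and 0.01 relative to their mean over all arrays in exercised and sedentary brachial arteries (log2). In exercised and sedentary IMAs they averaged -0.08 and 0.05. For training in the average of both arteries 1 of 12 was called higher and 0 lower, beside 4.68% of all probe sets called. A lower value can reflect fewer cells of a type or less RNA per cell, which cannot be told apart in bulk samples. The BioB hybridization control was 9.08 to 9.66 in exercised and 9.04 to 9.49 in sedentary brachial arrays, against 8.21 to 8.58 in exercised and 8.11 to 8.78 in sedentary IMA arrays. The arteries do not overlap on this control, so differences between arteries and between the hybridizations of their arrays cannot be told apart. The ratio of 28S to 18S RNA in the labels averaged 1.41 ± 0.166 in exercised and 1.38 ± 0.197 in sedentary brachial samples, and 1.33 ± 0.0841 in exercised and 1.19 ± 0.0763 in sedentary IMA samples (SD).

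Across both arteries, training went with less ADM and more PTGS1 transcript. ADM fell 1.92-fold, and both PTGS1 probe sets rose, by 1.41-fold and 1.57-fold. A difference was called at an adjusted p under 0.05 (limma, Benjamini-Hochberg over all probe sets). In the average of both arteries 3 of 9 probe sets passed, where 4.68% of all probe sets did. The 2 that were higher belong to 1 gene (2.88% of all were called higher), and 1 was lower (1.8% of all). In the brachial artery alone 0 of 9 passed (1.63% of all), with 4 at an unadjusted p under 0.05 in limma. In the IMA alone 0 of 9 passed (0.596% of all), with 3 at an unadjusted p under 0.05 in limma. That unadjusted level was met by 3686 of all 23999 probe sets in the brachial artery and 2945 in the IMA. In the average of both arteries it was met by 4447. The median training difference of the 9 probe sets was -0.01 in the average of both arteries, beside 0.01 for all probe sets. On all 9 probe sets the ranges of exercised and sedentary arrays overlapped in both arteries, while 0.604% of all probe sets did not overlap in the brachial artery and 0.288% did not in the IMA.

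**Figure D1:**
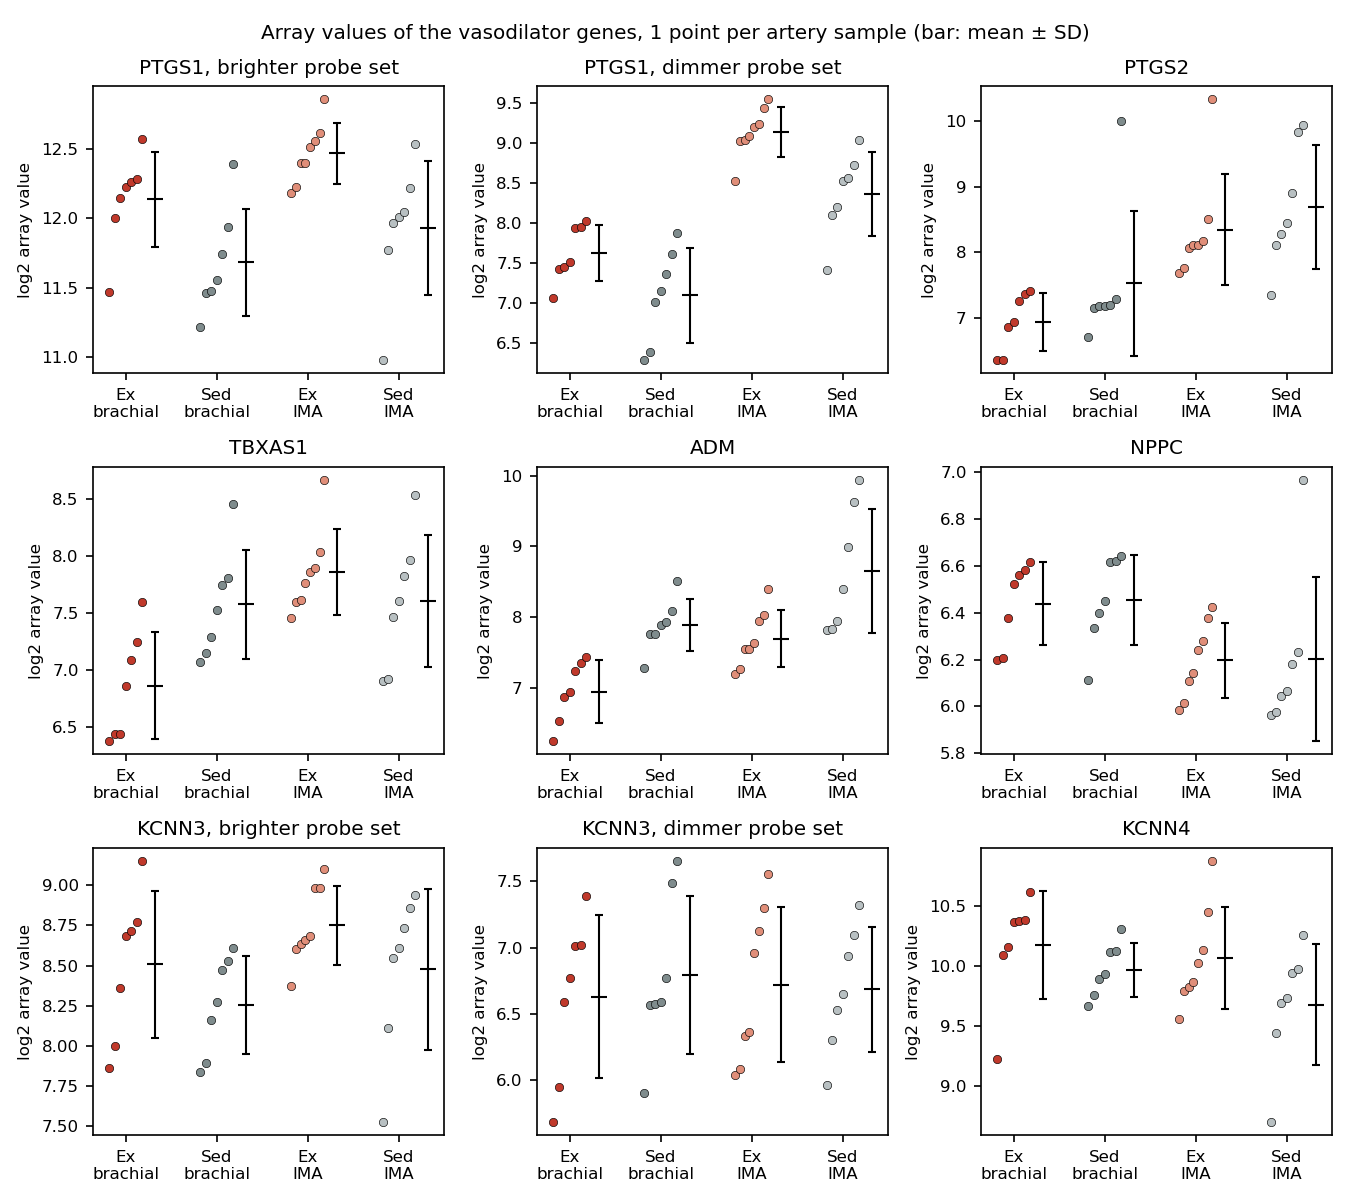
Log2 array value (vertical axes) of the 9 probe sets, with 1 point per artery sample, in exercised (Ex) and sedentary (Sed) brachial arteries and internal mammary arteries (IMA), with the mean and SD as bars. ADM points of exercised pigs lie lower than most points of sedentary pigs in both arteries, and PTGS1 points lie higher, with overlap in each case.

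PTGS1 encodes cyclooxygenase-1, the constitutive enzyme that makes prostaglandin H2 in endothelium and platelets. On its brighter probe set, exercised brachial arteries had a lowest, median and highest value of 11.47, 12.22 and 12.57, against 11.22, 11.56 and 12.39 in sedentary brachial arteries. In the IMA the values were 12.18, 12.46 and 12.86 in exercised pigs, against 10.98, 12.01 and 12.53 in sedentary pigs. Exercised arrays were above the sedentary mean in 6 of 7 brachial arteries and 8 of 8 IMAs, and the groups overlapped. The dimmer probe set had 7.06, 7.51 and 8.02 in exercised brachial arteries, against 6.28, 7.15 and 7.87 in sedentary ones. In the IMA it had 8.52, 9.14 and 9.55 in exercised pigs, against 7.41, 8.52 and 9.03 in sedentary pigs. Again 6 of 7 and 8 of 8 exercised arrays lay above the sedentary mean, and 6 exercised IMAs lay above every sedentary one.

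In exercised relative to sedentary pigs the brighter PTGS1 probe set rose by 0.50 ± 0.14 log2 units (SE) in the average of both arteries (adjusted p = 0.0426, limma), and the dimmer one by 0.65 ± 0.19 (adjusted p = 0.0387, limma). Averaged per pig over both arteries, the brighter probe set was 12.27 ± 0.23 in exercised pigs and 11.81 ± 0.33 in sedentary pigs (SD, n = 7 each), and 7 of 7 exercised pigs exceeded the mean of the sedentary pigs. The difference was 0.46 ± 0.19 in the brachial artery and 0.54 ± 0.18 in the IMA for the brighter probe set, and 0.54 ± 0.24 and 0.77 ± 0.23 for the dimmer one, none of which passed alone (adjusted p = 0.118 to 0.264, limma). Both PTGS1 calls lay close to the threshold. With the arteries of each pig averaged first, over the 14 pigs with both, they missed it (adjusted p = 0.104 for the brighter and 0.0621 for the dimmer probe set), as they did with the macrophage marker mean in the model (adjusted p = 0.114 and 0.175). The brighter one also missed it with array weights (adjusted p = 0.0646). Its difference in the average of both arteries was 0.69 among the first 8 pigs collected (adjusted p = 0.0835) and 0.26 among the last 7 (adjusted p = 0.719), and in the IMA the plain difference was 0.82 in the early and 0.19 in the late pigs. The dimmer one differed by 0.66 in the early pigs (adjusted p = 0.203) and 0.58 in the late pigs (adjusted p = 0.357). Of all probe sets 1123 passed in the main fit, but 364 with pigs averaged first and 423 with the macrophage mean. In the early pigs 252 did and in the late pigs 28. Leaving out 1 pig at a time kept the PTGS1 call in 3 of 15 fits for the brighter and 6 of 15 for the dimmer probe set. Over the 29 arrays the PTGS1 probe sets correlated at r = 0.768, which describes 2 readings of 1 RNA sample. Measured platelet markers, 3 of 10 listed, averaged 0.01 and -0.05 relative to their overall mean in exercised and sedentary brachial arteries and 0.01 and 0.03 in exercised and sedentary IMAs (log2), with 0 of 3 called for training in limma in the average of both arteries (0 at an unadjusted p under 0.05), and 1 of 3 at an unadjusted p under 0.05 in the brachial artery. Megakaryocyte genes ITGA2B and GP9 stayed between 7.25 and 7.83 on every array and the platelet chemokine gene PPBP between 3.37 and 5.68, and their part in the PTGS1 result was not tested.

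**Figure D2:**
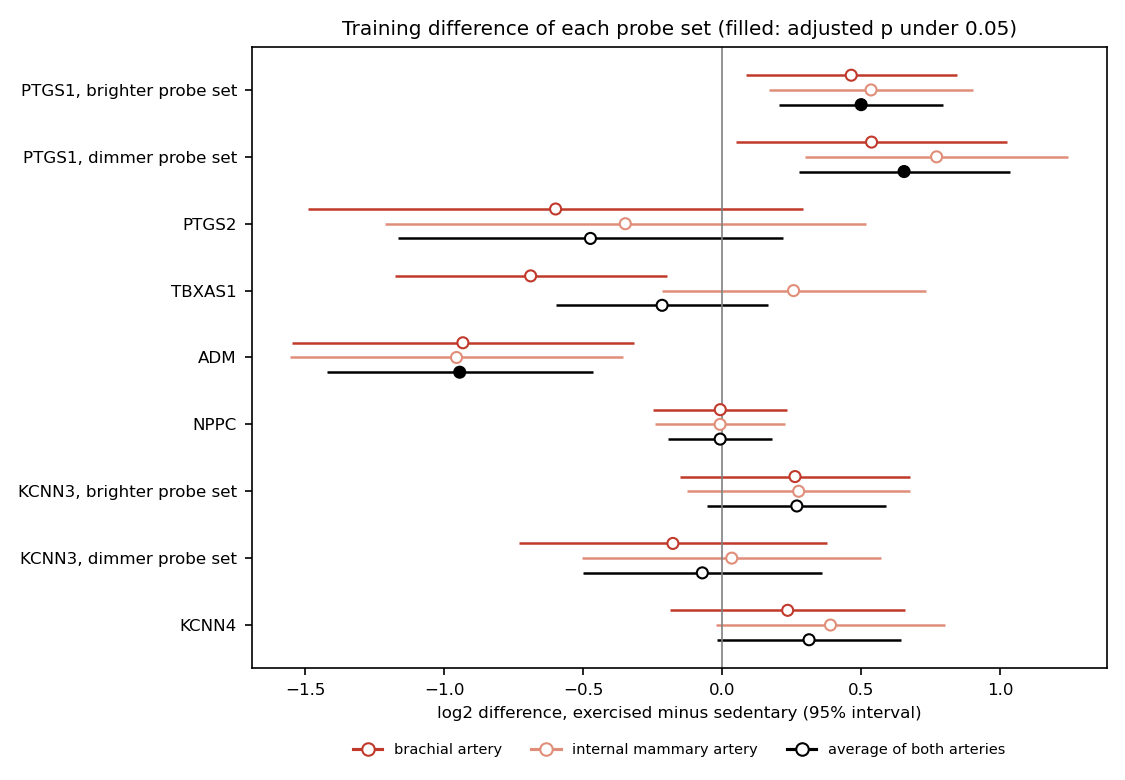
Training difference of each probe set (horizontal axis, log2, exercised minus sedentary) with its 95% interval in either artery and in their average. Filled points passed the threshold, which holds for both PTGS1 probe sets and ADM in the average of both arteries.

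PTGS2 encodes cyclooxygenase-2, the inducible counterpart of PTGS1. Exercised brachial arteries had 6.36, 6.94 and 7.41 (lowest, median, highest), against 6.71, 7.19 and 10.00 in sedentary brachial arteries. In the IMA exercised pigs had 7.69, 8.12 and 10.33, against 7.35, 8.45 and 9.94 in sedentary pigs. Exercised arrays lay below the sedentary mean in 7 of 7 brachial arteries and 7 of 8 IMAs, but 1 high array stretched the range of sedentary brachial arteries and 1 that of exercised IMAs. The high sedentary brachial array also raised the mean of its group to 7.53, above the next highest value of that group, 7.29. The training difference was -0.47 ± 0.34 in the average of both arteries, with a 95% interval of -1.17 to 0.22 (adjusted p = 0.493, limma). The interval leaves room for a fall of over 1 log2 unit as well as for a small rise. The brachial difference of PTGS2 was -0.60 ± 0.43, but 0.02 among the last 7 pigs collected and 0.17 when the model held the macrophage mean. The highest brachial and the highest IMA value of sedentary pigs came from 1 animal, pig 12_3, with 10.00 and 9.94, whose macrophage markers averaged 0.81 and 0.47 above their mean over all arrays. The IMA of sedentary pig 13_2 was nearly as high, 9.83, with macrophage markers at 0.11. That of sedentary pig 15_1 had 8.11, with macrophage markers at 0.63. The high exercised IMA, 10.33, was from pig 10_1, whose brachial value of 6.36 was the lowest of its group.

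TBXAS1 encodes thromboxane A synthase, abundant in platelets and macrophages. It had 6.37, 6.85 and 7.59 in exercised brachial arteries, against 7.07, 7.53 and 8.46 in sedentary ones. In the IMA it had 7.46, 7.81 and 8.67 in exercised pigs, against 6.90, 7.61 and 8.54 in sedentary pigs. Exercised brachial values were below the sedentary mean in 6 of 7 pigs and below every sedentary value in 4, whereas 6 of 8 exercised IMAs lay above the sedentary mean. The training difference was -0.69 ± 0.24 in the brachial artery (adjusted p = 0.132, limma) and 0.26 ± 0.23 in the IMA (adjusted p = 0.724, limma). The test of the difference between the arteries gave -0.95 ± 0.29, with an unadjusted p of 0.0028 and an adjusted p of 0.907 (limma). No probe set of the array passed that test, 0% of 23999, although 1035 had an unadjusted p under 0.05. It was the only one of the 9 probe sets under that unadjusted level, and the others differed by -0.25 to 0.02.

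Macrophage markers and TBXAS1 both averaged lower in exercised than in sedentary brachial arteries. In the IMA TBXAS1 averaged higher in exercised pigs, and the macrophage markers did not. The 9 measured of 12 listed markers averaged -0.36 in exercised brachial arteries (range -0.57 to -0.08) and 0.14 in sedentary ones (-0.24 to 0.81), relative to their mean over all arrays. In the IMA they averaged 0.08 in exercised pigs (-0.33 to 0.39) and 0.13 in sedentary pigs (-0.18 to 0.63). Over all arrays the markers' means ran between 6.52 for MRC1 and 11.9 for LAPTM5, with C1QC at 10.4, FCER1G at 9.65 and MARCO at 6.85. In the brachial artery 3 of 9 were called lower with training and 0 higher, with a median difference of -0.57, and in the IMA 0 of 9 were called in limma (1 at an unadjusted p under 0.05, median -0.04). Of all probe sets 1.63% were called in the brachial artery and 0.596% in the IMA, with median differences of 0.01 and 0.01. With the macrophage mean as a covariate the brachial TBXAS1 difference was -0.44 (adjusted p = 0.615, limma), and the difference between arteries was -0.73. The genes most like TBXAS1 across the 29 arrays were CD53, FCER1G and FCGR3A (r = 0.884, 0.882 and 0.871), and FCER1G is itself on the macrophage list.

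ADM encodes adrenomedullin, a peptide induced by low oxygen and inflammation that dilates vessels and tightens the endothelial barrier. Exercised brachial arteries had 6.25, 6.95 and 7.44 (lowest, median, highest), against 7.28, 7.89 and 8.51 in sedentary brachial arteries. In the IMA exercised pigs had 7.20, 7.59 and 8.40, against 7.81, 8.40 and 9.94 in sedentary pigs. All 7 exercised brachial arteries and all 8 exercised IMAs lay below the sedentary mean of their artery, and in each artery 5 lay below every sedentary value. Averaged per pig, ADM was 7.30 ± 0.35 in exercised pigs and 8.27 ± 0.35 in sedentary pigs (SD, n = 7 each), and 6 of 7 exercised pigs were below every sedentary pig.

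ADM fell by 0.94 ± 0.23 log2 units in the average of both arteries (95% interval of the difference -1.42 to -0.46, adjusted p = 0.0181, limma). The size was alike in each artery, -0.93 ± 0.30 in the brachial artery and -0.96 ± 0.29 in the IMA, though neither passed alone (adjusted p = 0.103 and 0.126, limma). The test between arteries gave 0.02, with an adjusted p of 1 (limma). In a fit to the brachial arrays alone, where pigs are not repeated, the ADM difference passed (-0.94, adjusted p = 0.048), as it did in the fit of all arrays without pig 15_1 (-1.03, adjusted p = 0.0466). Brachial ADM passed in only these 2 of 30 alternatives (adjusted p up to 0.701, limma). In the IMA the ADM difference passed in 0 of 30 (lowest adjusted p = 0.067, limma). Among the first 8 pigs collected the plain ADM difference was -1.25 in the brachial artery and -0.68 in the IMA, and among the last 7 it was -0.58 and -1.35. In the average of both arteries ADM was -0.96 in the early pigs (adjusted p = 0.0676) and -0.97 in the late pigs (adjusted p = 0.325), each with fewer animals. The call was also lost without pig 10_5 (adjusted p = 0.0508), without pig 11_1 (adjusted p = 0.0538) and with the macrophage mean as a covariate (-0.76, adjusted p = 0.115). The macrophage markers themselves averaged lower in exercised than in sedentary brachial arteries, so the fit with their mean cannot tell macrophage content and training apart. With that covariate 423 of all probe sets passed for the average of both arteries, against 1123 without it. The part of macrophage content in the ADM result was not tested.

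NPPC encodes C-type natriuretic peptide, an endothelial peptide that relaxes smooth muscle through its guanylyl cyclase receptor NPR2. It had 6.20, 6.52 and 6.62 in exercised brachial arteries, against 6.11, 6.45 and 6.64 in sedentary ones. In the IMA it had 5.98, 6.19 and 6.43 in exercised pigs, against 5.96, 6.06 and 6.97 in sedentary pigs. The groups covered nearly the same range in each artery. The training difference was -0.01 ± 0.09 in the average of both arteries, with a 95% interval of -0.19 to 0.18 (adjusted p = 0.979, limma), the narrowest interval of the 9 probe sets.

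KCNN3 and KCNN4 encode the small-conductance channel SK3 and the intermediate-conductance channel IK1, which open when calcium rises in the endothelial cell. The brighter KCNN3 probe set had 7.86, 8.68 and 9.15 in exercised brachial arteries, against 7.84, 8.27 and 8.61 in sedentary ones, and 8.37, 8.67 and 9.10 in exercised IMAs, against 7.53, 8.61 and 8.94 in sedentary ones. KCNN4 had 9.22, 10.37 and 10.62 in exercised brachial arteries, against 9.67, 9.93 and 10.31 in sedentary ones, and 9.55, 9.95 and 10.88 in exercised IMAs, against 8.69, 9.74 and 10.26 in sedentary ones. Exercised arrays lay above the sedentary mean in 5 of 7 brachial arteries and 7 of 8 IMAs for the brighter KCNN3 probe set, and in 6 of 7 and 7 of 8 for KCNN4, but the groups overlapped. In the average of both arteries the brighter KCNN3 probe set differed by 0.27 ± 0.16 (95% interval -0.05 to 0.59, adjusted p = 0.382) and KCNN4 by 0.31 ± 0.16 (-0.02 to 0.64, adjusted p = 0.3, limma). The dimmer KCNN3 probe set spanned 5.68 to 7.39 in exercised and 5.90 to 7.65 in sedentary brachial arteries, and 6.04 to 7.56 in exercised and 5.96 to 7.32 in sedentary IMAs, with 3 of 7 exercised brachial arteries and 4 of 8 exercised IMAs above the sedentary mean. Its training difference was -0.07 ± 0.21 (adjusted p = 0.906, limma). The KCNN3 probe sets correlated at only r = 0.195 over the 29 arrays, so they do not give the same reading of the gene.

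The sedentary IMA array of pig 11_1 was the lowest of its group for both PTGS1 probe sets, TBXAS1, the brighter KCNN3 probe set and KCNN4, and its smooth muscle markers averaged 0.90 above their mean over all arrays, the highest of its group. Smooth muscle markers, 11 of 15 listed, averaged 0.05 in exercised brachial arteries (range -0.63 to 0.84) and 0.27 in sedentary ones (-0.66 to 1.20), and -0.28 in exercised IMAs (-0.87 to 0.77) and 0.00 in sedentary ones (-0.44 to 0.90). With their mean as a covariate, as with the 28S to 18S ratio, ADM kept its call, while PTGS1 kept its calls with the ratio but not with the smooth muscle mean (adjusted p = 0.0566 and 0.0666). Without pig 11_1 both PTGS1 calls were kept.

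The arteries differed for more of these genes than training did. Averaged over exercised and sedentary pigs, 5 of the 9 probe sets were lower in the brachial artery than in the IMA and 1 was higher. That is 6 of 9 where 54.3% of all probe sets passed, 22.5% lower and 31.8% higher, so the share is near the background of a comparison in which most of the array differs. The median brachial minus IMA difference was -0.28 for the 9 probe sets, beside 0.03 for all probe sets. The dimmer PTGS1 probe set was 1.38 ± 0.14 log2 units lower in the brachial artery (2.61-fold, adjusted p = 5.58e-09, limma), and lower in 13 of 14 pigs. The brighter one was lower by only 0.28 ± 0.11 (1.22-fold, adjusted p = 0.0346, limma) and in 12 of 14 pigs, so the 2 readings of PTGS1 differed in size. This smaller call was kept in 13 of 30 alternatives, among them 6 of 15 fits without 1 pig. It missed with pig as a fixed replicate block (adjusted p = 0.0545) and with each array centred on its median (adjusted p = 0.0974). With the smooth muscle mean as a covariate it was -0.20 (adjusted p = 0.0646), and with the 28S to 18S ratio -0.21 (adjusted p = 0.197). It also missed in the early (adjusted p = 0.185) and late pigs alone (adjusted p = 0.122). PTGS2 was 2.45-fold lower (-1.29 ± 0.26, adjusted p = 0.000158, limma), in 13 of 14 pigs.

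ADM was 1.68-fold lower in the brachial artery (-0.75 ± 0.18, adjusted p = 0.000969, limma), in 11 of 14 pigs. The ADM difference between arteries was -0.46 in the early pigs (adjusted p = 0.0889) and -1.15 in the late pigs (adjusted p = 0.00426). NPPC was the member that was higher there, 1.19-fold (0.25 ± 0.07, adjusted p = 0.00397, limma), in 13 of 14 pigs, the exception being the sedentary pig 15_1. NPPC differed by 0.36 in the early pigs (adjusted p = 0.000636) and 0.13 in the late pigs (adjusted p = 0.43), and by 0.15 with the 28S to 18S ratio as a covariate (adjusted p = 0.1). TBXAS1 was 1.41-fold lower (-0.50 ± 0.14, adjusted p = 0.00461, limma), and missed the threshold in the early pigs alone (-0.45, adjusted p = 0.0631) and the late pigs alone (-0.54, adjusted p = 0.0736). For TBXAS1 the artery difference was -0.97 ± 0.20 in exercised pigs (adjusted p = 0.000335, limma), lower in 7 of 7 pigs, against -0.03 ± 0.21 in sedentary pigs (adjusted p = 0.937, limma), lower in 4 of 7. That contrast between exercised and sedentary pigs is the between-artery test above, which did not pass after adjustment. Neither KCNN3 probe set passed (-0.23 ± 0.12 and 0.00 ± 0.16), nor did KCNN4 (0.22 ± 0.13, adjusted p = 0.147, limma). The brighter KCNN3 probe set passed without pig 11_1 (-0.33, adjusted p = 0.0109), and KCNN4 passed with pig as a fixed replicate block (0.26, adjusted p = 0.0399). In exercised pigs taken alone 5 of 9 probe sets passed (41.2% of all) and in sedentary pigs alone 3 of 9 did (34.8% of all). Of the macrophage markers 4 of 9 were called lower in the brachial artery and 1 higher, over both groups of pigs and in exercised pigs alone (median -0.32 in exercised pigs), and 0 lower and 1 higher in sedentary pigs in limma (1 at an unadjusted p under 0.05, median -0.05). Of all probe sets 22.5% were called lower and 31.8% higher over both groups of pigs. With the macrophage mean as a covariate 5 of the 6 artery calls were kept: the dimmer PTGS1 probe set, PTGS2 (-0.97), TBXAS1 (-0.40, adjusted p = 0.0386), ADM (-0.62) and NPPC (0.32). The brighter PTGS1 probe set was not (adjusted p = 0.0653).

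**Figure D3:**
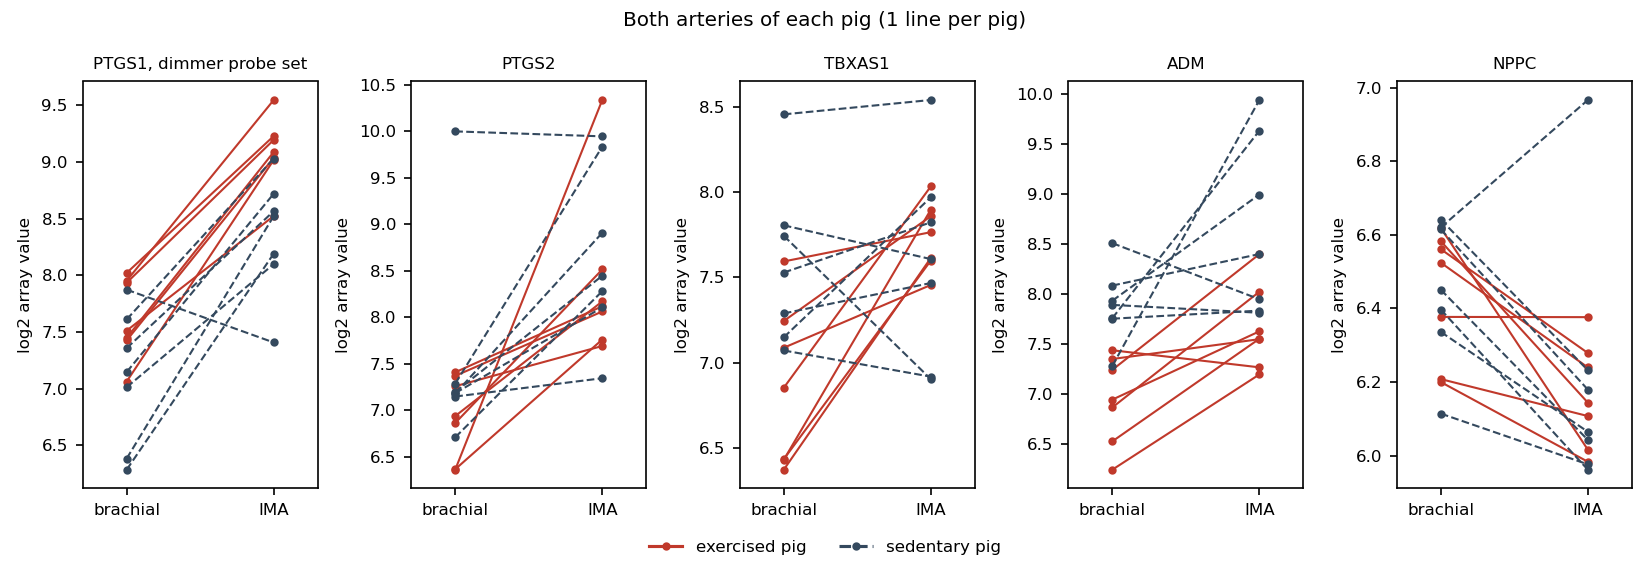
Log2 array value (vertical axes) in the brachial and the mammary artery (IMA) of the 14 pigs with both, 1 line per pig, solid red for exercised and dashed dark for sedentary pigs. The lines of the dimmer PTGS1 probe set and of PTGS2 run upward to the IMA in 13 of 14 pigs each, those of NPPC downward in 13 of 14, and those of TBXAS1 upward in 7 of 7 exercised pigs.

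Other genes of the same pathways passed for training in the average of both arteries in 1 of 11, 0 of 13 and 1 of 20 cases, shares to be read beside the 4.68% of all probe sets. Of 28 listed prostanoid genes 11 were measured by a probe set of 1 symbol, and PTGR1, a reductase that inactivates prostaglandin metabolites and leukotriene B4, was the 1 that passed. PTGR1 averaged 9.60 ± 0.12 in exercised and 9.15 ± 0.12 in sedentary brachial arteries, and 9.37 ± 0.10 in exercised and 9.06 ± 0.24 in sedentary IMAs (SD). It rose by 0.38 ± 0.06 in the average of both arteries (adjusted p = 0.00102, limma) and by 0.45 ± 0.08 in the brachial artery (adjusted p = 0.00665, limma). The brachial call of PTGR1 was lost with the macrophage mean in the model (0.35, adjusted p = 0.14) and in the early (adjusted p = 0.199) and late pigs alone (adjusted p = 0.127), and the averaged one in the early (adjusted p = 0.0823) and late pigs alone (adjusted p = 0.0799). The list's median difference in the average of both arteries was -0.01, beside 0.01 for all probe sets. Between the arteries ANXA1, the glucocorticoid-induced inhibitor of phospholipase A2, was 0.39 higher in the brachial artery and PTGR1 0.16 higher. ALOX5AP, which presents arachidonate to 5-lipoxygenase, differed by -0.21, the prostaglandin E synthase PTGES3 by -0.27, PTGR2 by -0.24 and CBR1 by -0.12, so 2 of 11 were higher, 4 lower and 5 not called (list median -0.18), where 31.8% of all probe sets were called higher and 22.5% lower. CBR1 was among the dimmest 33.3% of the array, with group means of 2.68 to 2.82.

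Of 28 listed genes of the natriuretic peptide and adrenomedullin pathway 13 were measured, and limma called 0 of them for training in the average of both arteries (2 at an unadjusted p under 0.05, list median 0.04). Between the arteries 7 of 13 were higher in the brachial artery, 3 lower and 3 not called (list median 0.11), again beside 31.8% higher and 22.5% lower of all probe sets. PDE3A, a phosphodiesterase that breaks down cyclic AMP, differed by -1.80 ± 0.11 (brachial minus IMA). CALCRL, which forms the adrenomedullin receptor with RAMP2 or RAMP3, differed by -0.96 ± 0.11, the same direction as its ligand. RAMP3, RAMP1 and RAMP2 ran the other way, by 0.58, 0.31 and 0.16. NPR2, the receptor of the NPPC product, was 0.44 ± 0.04 higher, in the direction of its ligand, and PAM, which amidates adrenomedullin, was 0.18 higher. The other calls were CALCB (0.14), CALCR (0.11) and NPPA (-0.25), and GUCY1B3, NPPB and PDE5A did not pass. CALCRL and CALCR were among the dimmest 33.3% of the array, with CALCRL group means of 5.34 to 6.49.

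Of 46 listed genes of potassium channels and endothelial hyperpolarization 20 were measured. EPHX2, the soluble hydrolase that removes the dilator epoxyeicosatrienoic acids, was the 1 that passed for training. It averaged 9.30 ± 0.29 in exercised and 8.80 ± 0.33 in sedentary brachial arteries, and 9.39 ± 0.23 in exercised and 9.02 ± 0.33 in sedentary IMAs (SD). EPHX2 rose by 0.44 ± 0.11 in the average of both arteries (adjusted p = 0.0202, limma), and lost the call with the macrophage mean as a covariate (0.27, adjusted p = 0.192), with the arteries of each pig averaged first (adjusted p = 0.115), and in the early (adjusted p = 0.263) and late pigs alone (adjusted p = 0.244). Its difference was 0.37 in the early and 0.50 in the late pigs. In those settings 423, 364, 252 and 28 of all probe sets passed, in the same order, against 1123 in the main fit. The median of this list was 0.01, as for all probe sets. Between the arteries 7 of 20 were higher in the brachial artery, 2 lower and 11 not called (list median 0.07), with the same 31.8% and 22.5% of all probe sets. The purinergic receptors P2RX4 and P2RY2 were 0.27 and 0.20 higher, the calmodulin gene CALM3 0.17, the channel subunits KCNA2 and KCNMA1 0.15 and 0.14, the calcium release channel ITPR1 0.14 and caveolin CAV1 0.10. The calcium pump ATP2A3 and CALM2 differed by -0.26 and -0.17. P2RY2, KCNA2 and ATP2A3 were among the dimmest 33.3% of the array.

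Across the 29 arrays of 15 pigs, each gene was also set beside 6764 others by Pearson's r, as a description of arrays that share artery, training and animal. ADM was most like CD55, EPB41L3 and CLDN11 (r = 0.849, 0.811 and 0.804). The brighter PTGS1 probe set was most like B3GNT3, CD82 and SMTNL2 (0.919, 0.868 and 0.858), and PTGS2 like PUS3, UIMC1 and EPAS1 (0.856, 0.838 and 0.808). The brighter KCNN3 probe set was most like the endothelial marker PECAM1, then LIPA and FKBP15 (0.872, 0.831 and 0.822), and KCNN4 like NOTCH4, LRP10 and TMEM63A (0.771, 0.768 and 0.755). The dimmer PTGS1 and KCNN3 probe sets were not set beside other genes in this way. NPPC had the weakest neighbours, SLC16A3, LPL and IL7 (0.684, 0.673 and 0.672).

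**Figure D4:**
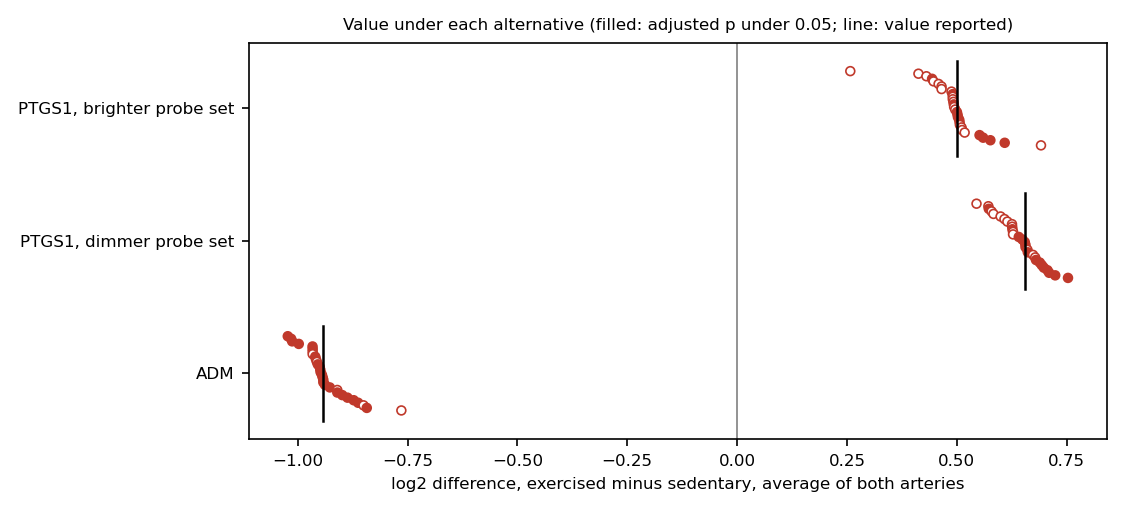
Training difference in the average of both arteries (horizontal axis, log2, exercised minus sedentary) of both PTGS1 probe sets and ADM under 30 other settings, 1 point each, filled where the adjusted p was under 0.05, with the reported value as a vertical line. No setting changed a sign, while many PTGS1 points are open and most ADM points are filled.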

How the data were processed

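RNA of scraped arteries was hybridized to single-colour oligonucleotide arrays. The deposited values are on a log2 scale, and the authors' summary and normalization are not given in the sources used here; affy is named without a version, per the submitters' processing notes. Of 24123 probe sets 124 controls were left out. Genes were named from the platform annotation: 10069 probe sets have 1 symbol, 198 several and 13732 none. limma 3.58.1 (R 4.3.3) fitted 4 group means with pig as a random block (consensus correlation 0.255), and 7 comparisons were adjusted by Benjamini-Hochberg over 23999 probe sets. The number of arrays limits the precision.

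Arrays of 1 pig are paired by the labels; within-group deviations of the arteries of 1 pig correlated at a median of 0.190, against -0.0230 between pigs, and 7 of 14 pigs matched best with themselves. Every member was reported. Lists represent a gene by its brightest probe set, and name genes that passed and up to 4 of smallest p. The members, lists and the split into early and late pigs were chosen with earlier results of these data known. Alternatives covered the block, dim probe sets, scaling, prior, array weights, covariates, collection period and each pig left out. The model was fitted to simulated data with the normal spread and the correlation within pigs that it assumes. This checked the calculation, not the results for these arrays.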

Additional observations from a re-analysis of the deposited data

Results flagged for a closer look

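In 4 of 36 combinations of a probe set and a group, 1 array lay far from the others, its gap to the nearest being a larger part of the group's range than Dixon's 95% limit allows; chance flags about 1 in 20. PTGS2 was 10.3 in the IMA of exercised pig 10_1 and 10.00 in the brachial artery of sedentary pig 12_3. KCNN4 was 9.22 in the brachial artery of exercised pig 15_4. NPPC was 6.97 in the IMA of sedentary pig 15_1.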

How the results depend on the processing

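Under 30 alternatives no called result whose sign was followed changed sign. For the artery difference in exercised or sedentary pigs alone, and the test between arteries, only TBXAS1 was followed by sign. The other members were followed there by counts of calls. Since each pig belongs to 1 training group, the fixed replicate block gives the artery differences within pigs, but for training it means a fit to 1 artery alone or to the means of the 14 pigs with both arteries. The number of called probe sets of the 9 members moved by over 1.5 times as follows. For the brachial artery, with 0 called, pig as a fixed replicate block gave 1, and leaving out 1 pig gave 0 to 1. For the IMA, with 0 called, the endothelial covariate gave 2 (both PTGS1 probe sets, adjusted p = 0.0221 and 0.021). Of all probe sets it called 425, against 143 in the main fit. For the average of both arteries, with 3 called, the fixed replicate block and the smooth muscle covariate gave 1, the macrophage covariate 0, early and late pigs alone 0, and leaving out 1 pig 0 to 3. Of all probe sets the main fit called 1123 here, the fixed replicate block 364 and the smooth muscle covariate 1205. The macrophage covariate called 423, early pigs 252, late pigs 28 and the fits without 1 pig 705 to 1223. For the artery difference, with 5 called in exercised pigs, late pigs gave 2, the macrophage covariate 3 and leaving out 1 pig 3 to 6; with 3 called in sedentary pigs, the smooth muscle covariate gave 5 and leaving out 1 pig 1 to 4; with 6 called over both, early and late pigs gave 3 each. Of all probe sets the main fit called 9887 for the artery difference in exercised pigs, 8340 in sedentary pigs and 13026 over both. In exercised pigs the late pigs gave 5943 and the macrophage covariate 7429. The smooth muscle covariate gave 10383 in sedentary pigs. Over both, early pigs gave 9012 and late pigs 8596. No replicate block gave 3 for the average of both arteries, and 1996 of all probe sets. The cause of these shifts was not tested, and the fits to 1 period also held fewer pigs. The PTGS1 calls were kept for the brighter probe set without pig 11_1, 15_4 or 17_1 and lost without any other single pig, and for the dimmer one lost without 10_5, 11_3, 11_4, 12_2, 12_3, 12_5, 13_2, 14_3 or 15_2 (adjusted p up to 0.0902 and 0.0832). The artery call of the brighter PTGS1 probe set was lost without 10_2, 10_5, 11_3, 11_4, 12_2, 12_3, 13_2, 15_1 or 15_4 (adjusted p up to 0.0861). ADM kept its call in 13 of 15 fits without 1 pig (-1.02 to -0.85).

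Among the results whose sign was followed, sign changes touched 10 that were not called, at most 0.21 in size, and the cause was not tested. The training difference of PTGS2 in the brachial artery became 0.019 in late pigs and 0.17 with the macrophage covariate. That of TBXAS1 became -0.042 in the IMA in late pigs and 0.060 in the average in early pigs. The artery difference of TBXAS1 in sedentary pigs became 0.017 with arrays centred on their medians, 0.013 with quantile normalization, 0.0098 in early pigs, 0.023 and 0.0066 with the smooth muscle and endothelial covariates, and lay between -0.171 and 0.106 with 1 pig left out. The training difference of NPPC in early pigs was 0.13 (brachial), 0.18 (IMA) and 0.15 (average). In the same order it was 0.0077, 0.0046 and 0.0062 with the smooth muscle covariate and 0.15, 0.0096 and 0.080 with the macrophage covariate. With the endothelial covariate it was 0.010 in the IMA and 0.0011 in the average, and with centred arrays 0.0020 in the brachial artery. With 1 pig left out NPPC ran over -0.063 to 0.033 (brachial), -0.047 to 0.12 (IMA) and -0.054 to 0.071 (average). For the dimmer KCNN3 probe set, the IMA training difference was -0.026 with array weights, -0.047 in early pigs, and -0.026 and -0.019 with the smooth muscle and macrophage covariates. With 1 pig left out it ran over -0.086 to 0.14 in the IMA and -0.20 to 0.054 in the average. Its artery difference was -0.019 with the fixed replicate block, -0.00088 without the dimmest probe sets, -0.018 with array weights, -0.00043 and -0.0040 with collection day or period, -0.094 in early pigs, -0.21 and -0.020 with the macrophage and endothelial covariates, and -0.075 to 0.054 with 1 pig left out.

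The other pathway genes that passed were put through the same alternatives after the data were seen. None of their values changed sign, and 96 of 834 missed the threshold, mostly those of CALCR, CALM2, ITPR1 and KCNA2. In the average of both arteries PTGR1 kept its training call in 15 of 15 fits without 1 pig and 13 of 15 others, and EPHX2 in 15 of 15 and 11 of 15. Signal over background could not be measured from these values, and the number of pigs limits what can be called in 1 artery.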
